A study of Mus musculus with 8 samples.

Results

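The expression of 10 genes of pathogen recognition was measured in mouse peritoneal macrophages: the surface Toll-like receptor (TLR) genes Tlr1, Tlr2, Tlr4, Tlr5 and Tlr6, the endosomal receptor genes Tlr3, Tlr7 and Tlr9, and the lipopolysaccharide (LPS) co-receptor genes Cd14 and Ly96, the latter encoding MD-2. A member was any gene probe of the array whose transcript accession belongs to one of these genes, and the brightest probe stood for a gene with several. All 10 members were found and tested, of 20887 named genes on the array and of 36947 genes and unnamed transcripts tested in all. Adherent peritoneal cells of LysMCre-fur(fl/fl) mice, here called KO, and of WT mice, both of the C57BL/6 background, were left unstimulated or given 1 μg/ml LPS for 1, 4 or 24 h. In the KO mice Cre is driven by the lysozyme M promoter, so the floxed fur gene, which encodes the proprotein convertase FURIN, is deleted in myeloid cells and the remaining cells of the culture keep it. The ages of the mice, and whether mice were pooled, are not given in the sources used here. Each of 8 two-colour arrays held KO and WT RNA of one time point, with 2 arrays per time point, described by the study as biological replicates. Replicate 1 carried WT RNA in Cy3 and replicate 2 carried it in Cy5, so replicate and dye orientation cannot be told apart.

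Toll-like receptors bind microbial molecules through leucine-rich repeats and signal through adaptor proteins such as MyD88 and TRIF. TLR4 recognises LPS as a complex with MD-2, CD14 passes LPS to that complex, TLR2 pairs with TLR1 or TLR6 to bind bacterial lipopeptides, and TLR5 binds flagellin. TLR3, TLR7 and TLR9 sense nucleic acids inside endosomes, where proteases trim their ectodomains. Resident peritoneal macrophages are known to express most of these receptors, and LPS is known to change the transcript level of several of them.

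The deletion was checked on the Furin probe, which may lie outside the deleted part. Furin was lower in the KO channel on all arrays of the unstimulated, 1 h and 24 h cells, with log2 KO/WT ratios between -0.85 and -0.55. At 4 h the ratios were 0.00 and 0.33, so the RNA labelled KO at 4 h did not show lower Furin. Lyz2, the gene that carries the Cre insertion, was lower in KO on 8 of 8 arrays, with ratios of -1.04 and -1.13 on the 4 h arrays. The KO directions given at 4 h therefore go with a lower Lyz2 but not with a lower Furin. Of the macrophage markers, 8 of 9 were measured and all 8 were well above background in all 16 channels. The cultures also held other cells: all 10 B cell markers and 6 of 7 mast cell markers were above background in every channel. The same held for 5 of 8 dendritic cell markers, 6 of 10 T and NK cell markers and 3 of 8 measured neutrophil markers. It held for 2 of 10 mesothelial and fibroblast markers and 1 of 6 eosinophil markers. In such bulk RNA, fewer cells of a type and less RNA per cell cannot be told apart.

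Of the members, 6 had entries in the RefSeq promoter table of build GRCm38.p6, with 8 start sites between them. Stretches of 250 bases before the start are shown for the 4 genes whose stretch held a searched motif, with the matching letters in capitals and the gene's strand read 5′ to 3′. Motifs were searched on both strands. The NF-κB consensus was found in 2 of the 8 member stretches (Tlr2, with overlapping matches, and Tlr3) and in 7.25% of all 32851 stretches of the table. The pair GAAANNGAAA was found in 1 of 8, that of Tlr6, and in 2.98% of all, TGANTCA in 1 of 8, that of Tlr9, and in 6.75% of all, and TGACGTCA in 0 of 8 and 1.55% of all. These are matches of letters, and binding was not measured. The stretches lie at chr3:83841609-83841858 (Tlr2, minus strand), chr8:45410381-45410630 (Tlr3, minus strand), chr5:64959167-64959416 (Tlr6, minus strand, one of its start sites) and chr9:106222348-106222597 (Tlr9, plus strand).
Tlr2: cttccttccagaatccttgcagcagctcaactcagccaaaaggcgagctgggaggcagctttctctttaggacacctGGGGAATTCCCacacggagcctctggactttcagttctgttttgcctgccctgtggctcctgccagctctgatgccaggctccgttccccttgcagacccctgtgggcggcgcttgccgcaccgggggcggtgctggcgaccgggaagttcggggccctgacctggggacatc
Tlr3: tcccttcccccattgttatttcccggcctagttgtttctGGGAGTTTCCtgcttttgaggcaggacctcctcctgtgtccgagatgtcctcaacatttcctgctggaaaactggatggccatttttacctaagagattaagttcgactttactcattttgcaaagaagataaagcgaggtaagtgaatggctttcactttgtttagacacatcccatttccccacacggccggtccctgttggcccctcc
Tlr6: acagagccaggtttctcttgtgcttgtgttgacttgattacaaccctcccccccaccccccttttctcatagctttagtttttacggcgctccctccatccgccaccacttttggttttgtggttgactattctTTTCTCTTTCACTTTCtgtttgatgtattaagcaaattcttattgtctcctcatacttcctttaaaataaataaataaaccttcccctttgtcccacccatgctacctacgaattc
Tlr9: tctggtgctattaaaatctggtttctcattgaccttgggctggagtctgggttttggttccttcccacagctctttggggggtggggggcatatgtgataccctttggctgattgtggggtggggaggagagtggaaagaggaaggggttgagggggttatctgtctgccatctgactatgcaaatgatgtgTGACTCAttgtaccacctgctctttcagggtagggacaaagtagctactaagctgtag

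All values below are log2 intensities after normalisation, one per channel, given as replicate 1 and then replicate 2, and they compare conditions for one probe only. A change with LPS is the difference of the group means with its 95% interval, and it passed the test when limma's Benjamini-Hochberg adjusted p over all genes was under 0.05. The plot of levels by time shows every channel.

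**Figure D1:**
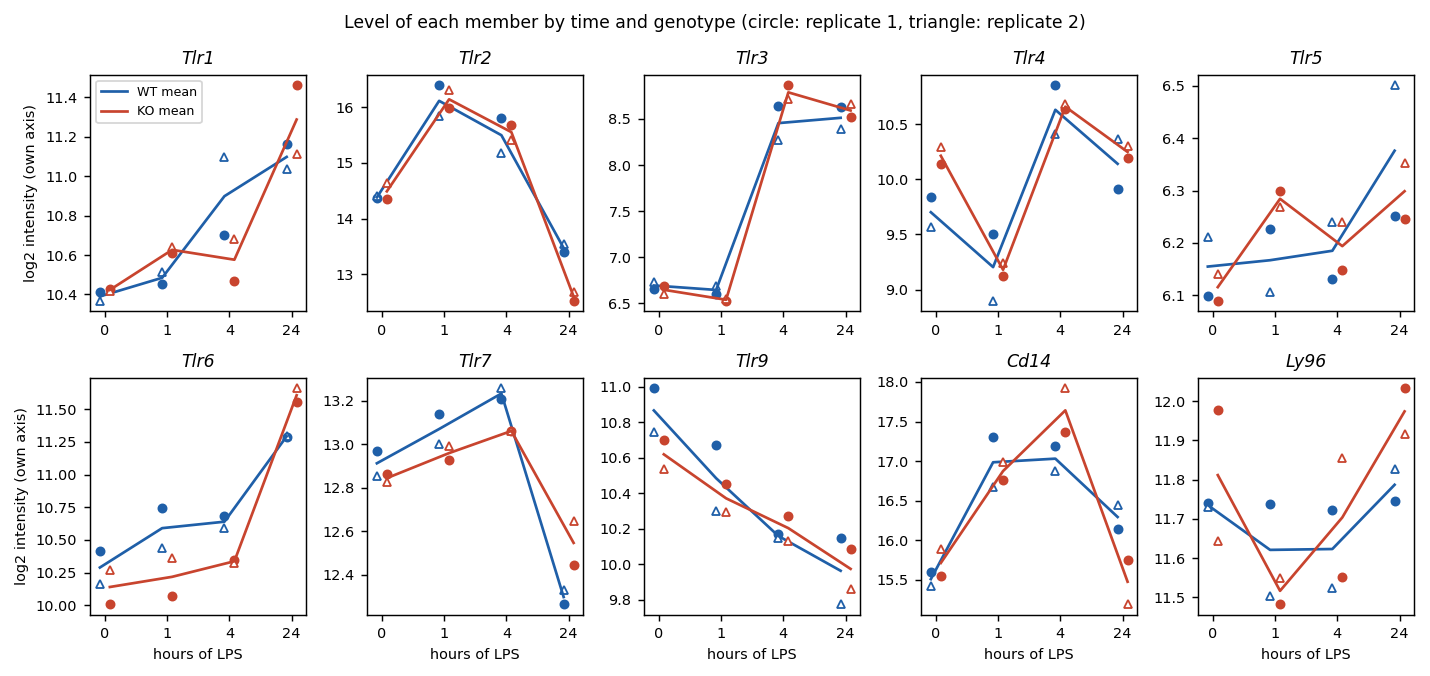
Log2 intensity of each member against hours of LPS (time points evenly spaced, each panel with its own axis) in WT (blue) and KO (red) macrophages, with 1 point per channel and lines through the means of the 2 replicates. Tlr2 and Cd14 peaked at 1 or 4 h, Tlr3 stood 1.76 to 2.14 log2 units higher at 4 and 24 h than in unstimulated cells, Tlr9 had its lowest means at 24 h, and Tlr5 stayed between 6.09 and 6.50, not well above background.

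The genes of the LPS receptor complex followed different courses. Tlr4 was measured by 2 spots per array and was well above background in all 16 channels. In WT cells its level was 9.84 and 9.57 unstimulated, 9.51 and 8.90 at 1 h, then 10.85 and 10.41 at 4 h, and 9.92 and 10.37 at 24 h. In KO cells it was 10.14 and 10.29 unstimulated, 9.12 and 9.24 at 1 h, then 10.64 and 10.68 at 4 h, and 10.20 and 10.30 at 24 h. The 1 h channels were the lowest and the 4 h channels the highest in both genotypes. At 1 h Tlr4 fell in KO by 1.03 (interval -1.47 to -0.60, adjusted p = 0.00572), and in WT the change was -0.50 (interval -0.94 to -0.06, adjusted p = 0.195). The KO call was lost without the unstimulated replicate 2 (change -0.96, adjusted p = 0.0566). The difference between these changes was -0.54 with an adjusted p of 1 and was not shown. From 1 to 4 h Tlr4 rose by 1.43 in WT (adjusted p = 7.84e-05) and by 1.48 in KO (adjusted p = 5.48e-05), or 2.69-fold and 2.79-fold. At 4 h it was above the unstimulated level in WT, by 0.93 (interval 0.49 to 1.37, adjusted p = 0.00217), and the change of 0.45 in KO did not pass (adjusted p = 0.113). With loess within arrays and no scaling between them, the WT change at 4 h was 0.51 and did not pass (adjusted p = 0.094). At 24 h neither change passed, with 0.44 in WT (adjusted p = 0.134) and 0.03 in KO (adjusted p = 0.941).

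Cd14, which encodes a surface protein that hands LPS to TLR4 and MD-2, was bright in every channel, and no spot was saturated. In WT cells it measured 15.60 and 15.42 unstimulated, 17.30 and 16.67 at 1 h, then 17.19 and 16.87 at 4 h, and 16.15 and 16.44 at 24 h. In KO cells it measured 15.54 and 15.88 unstimulated, 16.76 and 16.99 at 1 h, then 17.36 and 17.92 at 4 h, and 15.75 and 15.20 at 24 h. Each 1 h and 4 h channel lay above every unstimulated channel, and at 24 h the WT channels lay above the unstimulated ones while the KO channels overlapped them. At 1 h Cd14 rose 2.78-fold in WT (log2 1.48, interval 0.92 to 2.03, adjusted p = 0.00189) and 2.24-fold in KO (log2 1.16, interval 0.61 to 1.71, adjusted p = 0.0121). The KO rise at 1 h did not pass without the unstimulated replicate 1 (0.99, adjusted p = 0.155) or without the 1 h replicate 2 (1.05, adjusted p = 0.0749). At 4 h it rose by 1.52 in WT (adjusted p = 0.000259) and by 1.93 in KO (adjusted p = 3.06e-05). At 24 h it was still raised in WT, by 0.78 (interval 0.23 to 1.34, adjusted p = 0.0315), and the KO change was -0.24 (interval -0.79 to 0.32, adjusted p = 0.598). The WT call at 24 h is close to the threshold: it was lost with the scanner software's processed signals (0.77, adjusted p = 0.0625) and without the unstimulated replicate 1 (0.88, adjusted p = 0.0741), the unstimulated replicate 2 (0.69, adjusted p = 0.164) or the 24 h replicate 2 (0.64, adjusted p = 0.161). From 4 to 24 h Cd14 fell by 2.16 in KO (adjusted p = 1.54e-05) and by 0.74 in WT (adjusted p = 0.044). The WT fall was within the range of the alternatives from -0.90 to -0.47, and it passed in 10 of 18 of them. It did not pass with loess within arrays only (-0.47, adjusted p = 0.203), without the 4 h replicate 1 (-0.58, adjusted p = 0.196) or without the 24 h replicate 1 (-0.59, adjusted p = 0.199). The KO rise from 1 to 4 h of 0.77 (adjusted p = 0.0343) did not pass without the 1 h replicate 1 (0.65, adjusted p = 0.134) or the 4 h replicate 2 (0.49, adjusted p = 0.266).

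Ly96, whose product MD-2 holds the lipid part of LPS in the receptor, stayed within 11.48 and 12.03 over all 16 channels. Its changes with LPS lay between -0.29 and 0.16, and 0 of its 6 changes from the unstimulated level passed the test. The widest of these was -0.29 at 1 h in KO, with an interval of -0.59 to 0.00. From 4 to 24 h its change was 0.16 in WT and 0.27 in KO and passed in neither (adjusted p = 0.468 and 0.18). With loess within arrays only these steps were 0.62 and 0.72 and both passed (adjusted p = 0.00818 and 0.00271).

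Tlr2 was measured by 10 spots of the same probe on each array and showed the largest early rise among the TLR genes. In WT cells its level was 14.37 and 14.40 unstimulated, 16.39 and 15.84 at 1 h, then 15.81 and 15.19 at 4 h, and 13.39 and 13.55 at 24 h. In KO cells it was 14.34 and 14.64 unstimulated, 15.98 and 16.30 at 1 h, then 15.69 and 15.42 at 4 h, and 12.53 and 12.68 at 24 h. In both genotypes all 1 h and 4 h channels lay above the unstimulated channels and all 24 h channels below them. At 1 h Tlr2 rose by 1.73 in WT (interval 1.28 to 2.19, adjusted p = 0.000107) and by 1.65 in KO (interval 1.20 to 2.11, adjusted p = 0.000208), or 3.33-fold and 3.14-fold. At 4 h it was still raised, by 1.12 in WT (adjusted p = 0.000706) and by 1.06 in KO (adjusted p = 0.00103). At 24 h it fell below the unstimulated level, with changes of -0.91 in WT (interval -1.37 to -0.45, adjusted p = 0.00411) and -1.89 in KO (interval -2.34 to -1.43, adjusted p = 9.67e-06). The WT fall was -0.50 with loess within arrays only and did not pass (adjusted p = 0.123). Between 4 and 24 h Tlr2 fell 4.07-fold in WT (adjusted p = 5.14e-06) and 7.73-fold in KO (adjusted p = 1.77e-07). The fall from 1 to 4 h, -0.62 in WT (adjusted p = 0.0413) and -0.59 in KO (adjusted p = 0.0483), sat at the threshold. With the replicate block the KO fall did not pass (adjusted p = 0.0523), and with the block and a dye term it passed (adjusted p = 0.0204). The WT fall was -0.31 without the 4 h replicate 2 (adjusted p = 0.408) and -0.93 without the 4 h replicate 1 (adjusted p = 0.00851).

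Tlr1 and Tlr6, neighbouring genes whose products each pair with TLR2, rose late. Tlr6 measured 10.41 and 10.17 in unstimulated WT and 10.01 and 10.27 in unstimulated KO cells, against 11.29 and 11.30 in WT and 11.55 and 11.66 in KO at 24 h. The 24 h channels lay above all other channels of Tlr6. Its rise at 24 h was 2.00-fold in WT (log2 1.00, interval 0.70 to 1.31, adjusted p = 7.16e-05) and 2.76-fold in KO (log2 1.47, interval 1.16 to 1.77, adjusted p = 2.26e-06). At 4 h the WT change was 0.35 and did not pass (adjusted p = 0.0732, and 0.0243 with the replicate block and a dye term), and the KO change was 0.20 (adjusted p = 0.341). Tlr1 measured 10.41 and 10.37 in unstimulated WT cells and 11.16 and 11.03 at 24 h, and 10.43 and 10.42 in unstimulated KO cells and 11.46 and 11.11 at 24 h. At 24 h it rose by 0.71 in WT (interval 0.42 to 1.00, adjusted p = 0.000951) and by 0.86 in KO (interval 0.57 to 1.15, adjusted p = 0.000194). At 4 h Tlr1 rose in WT, by 0.51 (adjusted p = 0.00843), with channels of 10.70 and 11.09, and the KO change was 0.15 (adjusted p = 0.457), with channels of 10.47 and 10.68. The WT call at 4 h was lost with loess within arrays only (0.13, adjusted p = 0.63), without the unstimulated replicate 2 (0.49, adjusted p = 0.0644) and without the 4 h replicate 2 (0.31, adjusted p = 0.119). The WT step from 1 to 4 h, 0.41 (adjusted p = 0.0323), was 0.16 with loess within arrays only (adjusted p = 0.471) and 0.22 without the 4 h replicate 2 (adjusted p = 0.324).

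Tlr5, the flagellin receptor gene, was not well above background in any of the 16 channels. Its values, between 6.09 and 6.50, give no level, and no fold is given. It passed in 0 of the 10 comparisons of LPS times. With the scanner software's processed signals the WT value at 24 h was 1.12 above the unstimulated one and passed (adjusted p = 0.00156), from spots that were not well above background.

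Tlr3, the receptor gene for double-stranded RNA, changed more than the other endosomal receptors. In WT cells its level was 6.66 and 6.73 unstimulated, 6.61 and 6.69 at 1 h, then 8.64 and 8.27 at 4 h, and 8.63 and 8.39 at 24 h. In KO cells it was 6.69 and 6.60 unstimulated, 6.53 and 6.55 at 1 h, then 8.86 and 8.71 at 4 h, and 8.52 and 8.66 at 24 h. The 4 h and 24 h channels of both genotypes lay well above all unstimulated and 1 h channels. Those earlier channels lay between 6.53 and 6.73, and the KO channels at 1 h were the lowest of them. At 1 h the changes were -0.05 in WT and -0.11 in KO, and 1 of the 2 channels of each genotype was not well above background. At 4 h Tlr3 rose by 1.76 in WT (interval 1.49 to 2.03, adjusted p = 7.57e-08) and by 2.14 in KO (interval 1.87 to 2.41, adjusted p = 1.20e-08), or 3.39-fold and 4.41-fold. At 24 h it remained raised, by 1.82 in WT (adjusted p = 9.33e-08) and by 1.94 in KO (adjusted p = 5.25e-08). The size of the rise differed between ways of processing the signal: with the scanner software's processed signals the 4 h rise was 3.21 in WT and 3.62 in KO. The main fit adds an offset of 50 to each intensity, and the unstimulated Tlr3 intensities were 97 to 106 after normalisation. The folds above therefore hold for that offset, and its part in the difference between the settings was not tested. Between 4 and 24 h the change was 0.06 in WT and -0.20 in KO, and neither passed (adjusted p = 0.823 and 0.30). With loess within arrays only the WT step was 0.53 and passed (adjusted p = 0.0126).

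Tlr7, which encodes a receptor for single-stranded RNA, moved little until 24 h. Its WT channels were 12.97 and 12.86 unstimulated, 13.21 and 13.26 at 4 h and 12.27 and 12.33 at 24 h. Its KO channels were 12.86 and 12.83 unstimulated, 13.06 and 13.06 at 4 h and 12.44 and 12.65 at 24 h. The 24 h channels were the lowest of each genotype. At 24 h Tlr7 fell by 0.61 in WT (interval -0.82 to -0.41, adjusted p = 0.000196) and by 0.30 in KO (interval -0.51 to -0.09, adjusted p = 0.0325). With loess within arrays only the WT change was -0.30 (adjusted p = 0.129) and the KO change turned to 0.02 (adjusted p = 0.958). The KO call was also lost without the 24 h replicate 1 (-0.20, adjusted p = 0.319) or either unstimulated replicate (-0.28 and -0.32, adjusted p = 0.158 and 0.0972). The WT rise at 4 h, 0.32 (adjusted p = 0.0182), did not pass without the unstimulated replicate 2 (0.26, adjusted p = 0.158), the 4 h replicate 1 (0.34, adjusted p = 0.0564) or the 4 h replicate 2 (0.30, adjusted p = 0.0984). A second Tlr7 probe gave changes of 0.44 at 4 h and -0.50 at 24 h in WT, and of 0.29 and -0.37 in KO, in the same directions as the brighter one. With the mean of both probes the KO change at 24 h was -0.33 (adjusted p = 0.12) and the WT change at 4 h was 0.38 (adjusted p = 0.0601), and neither passed. With loess within arrays only the WT change at 4 h was 0.30 and did not pass (adjusted p = 0.106).

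Tlr9, the receptor gene for unmethylated CpG DNA, fell. Its WT channels were 10.99 and 10.74 unstimulated, 10.67 and 10.30 at 1 h, then 10.17 and 10.14 at 4 h, and 10.15 and 9.78 at 24 h. Its KO channels were 10.70 and 10.54 unstimulated, 10.45 and 10.29 at 1 h, then 10.27 and 10.13 at 4 h, and 10.09 and 9.86 at 24 h. In both genotypes the means were ordered by time, and the 4 h and 24 h channels did not overlap the unstimulated ones. At 24 h Tlr9 fell by 0.90 in WT (interval -1.23 to -0.58, adjusted p = 0.000297) and by 0.65 in KO (interval -0.97 to -0.32, adjusted p = 0.00418). At 4 h it fell by 0.71 in WT (adjusted p = 0.00167) and by 0.42 in KO (adjusted p = 0.0435), and with loess within arrays only these changes were -1.10 (adjusted p = 2.62e-05) and -0.82 (adjusted p = 0.000447). The KO fall at 4 h did not pass when any one of the unstimulated or 4 h arrays was left out, with changes of -0.50 to -0.33 and adjusted p of 0.0643 to 0.228. At 1 h the WT change of Tlr9, -0.38, did not pass (adjusted p = 0.17), but it passed with the replicate block (adjusted p = 0.0326), under which 5.54% of all genes were called lower. The WT step from 1 to 4 h, -0.33, did not pass (adjusted p = 0.133) but passed with the replicate block (adjusted p = 0.0264, with 16.3% of all genes called lower). It also passed with loess within arrays only (-0.62, adjusted p = 0.00589), with the scanner software's processed signals (-0.45, adjusted p = 0.037) and without the 1 h replicate 2 (-0.51, adjusted p = 0.0485). B cells also express Tlr9, and the mean log2 level of the 10 B cell markers in the WT channels was 10.68 to 11.11 unstimulated, 10.85 to 11.37 at 1 h, 10.49 to 10.90 at 4 h and 10.66 to 10.71 at 24 h. In KO it was 10.92 to 11.28, 11.49 to 11.54, 10.38 to 10.68 and 10.79 to 10.81 at the same times, and the part of these cells in the Tlr9 level was not tested.

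**Figure D2:**
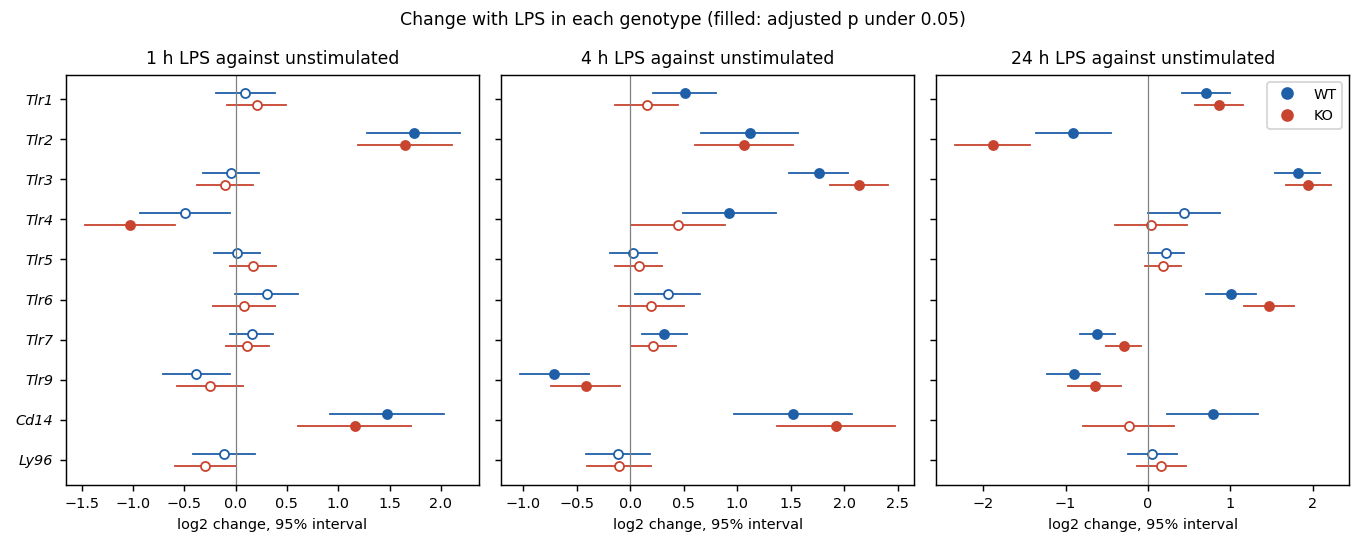
Log2 change of each member after 1, 4 and 24 h of LPS against unstimulated cells in WT (blue) and KO (red), with 95% intervals. Filled points had an adjusted p under 0.05. Among them are Tlr2 and Cd14 on the higher side at 1 and 4 h in both genotypes, Tlr3 on the higher side at 4 and 24 h, Tlr9 on the lower side at 4 and 24 h, and Tlr1 and Tlr6 on the higher and Tlr2 and Tlr7 on the lower side at 24 h. Tlr4 is filled on the lower side at 1 h in KO and on the higher side at 4 h in WT. The KO change of Tlr7 at 24 h turned to 0.02 with loess within arrays only.

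Counted over the members, 2 of 10 rose and 0 fell at 1 h in WT, where 3.38% of all genes were called higher and 5.12% lower. In KO 2 rose and 1 fell at 1 h, against 3.09% higher and 4.35% lower among all genes. At 4 h 6 rose and 1 fell in WT (all genes 15.5% higher and 19.3% lower), and 3 rose and 1 fell in KO (16.2% and 19.7%). At 24 h 4 rose and 3 fell in WT (13.5% and 17%), and 3 rose and 3 fell in KO (12.7% and 15.9%). The median size of a member's change at 4 h was 0.61 in WT and 0.32 in KO, against 0.20 and 0.21 for all genes. All genes here include features near background, since 43.8 to 51.3% of gene probes were well above it per channel. Of the members, 4 of 5 surface, 2 of 3 endosomal and 2 of 2 co-receptor genes were well above it in all 16 channels. The all-gene shares and medians, here and below, are therefore not those of expressed genes alone. From 1 to 4 h 3 members rose and 1 fell in each genotype (all genes 13.9% higher and 15.7% lower in WT, 14.9% and 16.9% in KO). From 4 to 24 h 1 rose and 3 fell in WT (15.1% and 14.6%), and 2 rose and 3 fell in KO (15.6% and 15.1%). With loess within arrays only, 3 members rose and 1 fell at 4 h in WT. At 24 h that setting gave 4 higher and 1 lower in WT and 3 higher and 2 lower in KO. Of all WT calls at 24 h 53% were then higher, against 44.3% with scaling between arrays. From 4 to 24 h that setting turned the balance of the members, with 4 higher and 2 lower in WT and 3 higher and 2 lower in KO, and of all WT calls 79.8% were higher, against 50.8% with scaling between arrays. The methods' t-test, with 2 channels a side, called 0 of the 46 member changes after adjustment.

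The large peritoneal macrophage markers moved with time as well. The mean log2 level of these 7 genes lay between 11.59 and 12.09 in the unstimulated channels of both genotypes and between 8.75 and 8.87 at 24 h. The 8 macrophage markers, which include Cd14, lay between 14.96 and 15.22 unstimulated and between 14.08 and 14.53 at 24 h. The 7 mast cell markers had mean levels between 9.71 and 10.44 unstimulated and between 7.86 and 8.85 at 24 h, and 5 of 7 fell at 24 h in each genotype (17% of all genes in WT and 15.9% in KO), with medians of -1.61 in WT and -1.39 in KO. The part of these lists in the members' changes, among them the falls of Tlr2, Tlr7 and Tlr9 at 24 h, was not tested.

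The question of the study, how FURIN loss alters the macrophage response, was addressed by comparing KO and WT levels of the members on the arrays that carried both. In the fit without the replicate number, no member passed the test at any time: 0 of 10 unstimulated and 0 of 10 at 1 h, where 0% of all genes passed, 0 of 10 at 4 h (0.0135% of all genes), 0 of 10 at 24 h (0.0244%) and 0 of 10 for the mean over the 4 time points (0.566%). With the replicate number as a block, 1 member (Tlr2 at 24 h) passed, and 391, 212, 209 and 216 of all genes passed at 0, 1, 4 and 24 h. At an unadjusted p under 0.05 limma gave 2, 1, 2 and 3 members at the 4 times, against 2135, 2025, 1589 and 1266 of all 36947 genes. The methods' t-test gave 0, 0, 2 and 2 members, against 1694, 1754, 1128 and 1514 of all genes. The median size of the members' ratio was 0.09, 0.11, 0.13 and 0.19 at 0, 1, 4 and 24 h, against 0.08, 0.08, 0.07 and 0.07 for all genes. The plot of ratios by array shows the spread between replicates: at 1 h the ratios of Tlr2, Tlr4, Cd14 and Ly96 had opposite signs on the 2 arrays.

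**Figure D3:**
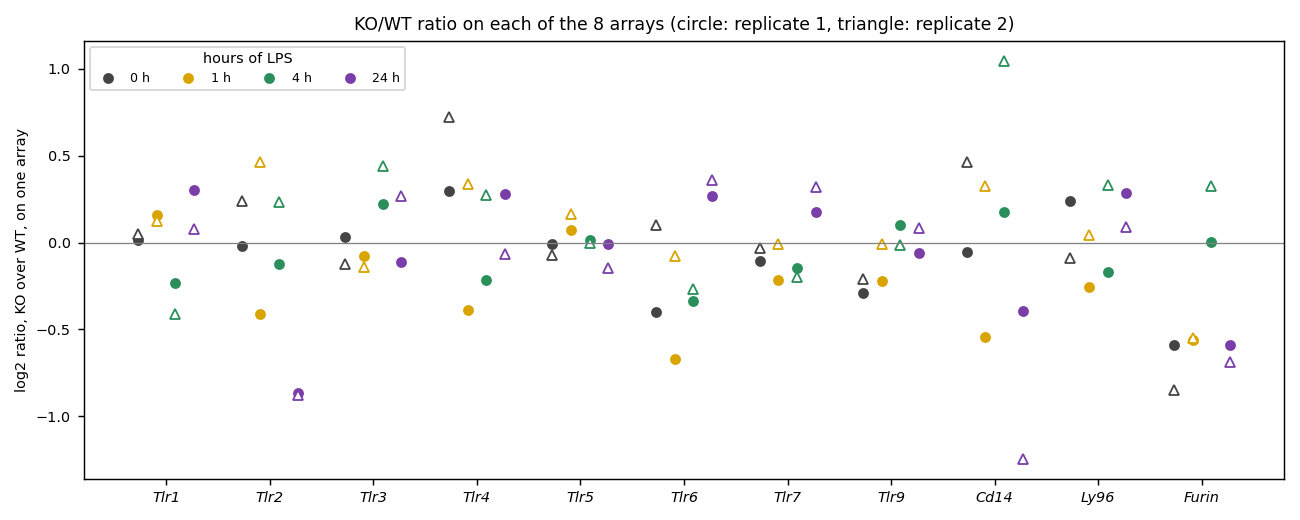
Log2 KO/WT ratio of the 10 members and of Furin on each of the 8 arrays, with colour for hours of LPS, circles for replicate 1 and triangles for replicate 2. The 24 h ratios of Tlr2 lie at -0.86 and -0.88, while those of Cd14 spread from -1.24 to -0.39 and most other members scatter around 0.

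Tlr2 at 24 h was the member nearest to a difference. Its log2 KO/WT ratio was -0.02 and 0.24 unstimulated, -0.41 and 0.47 at 1 h, then -0.12 and 0.23 at 4 h, and -0.86 and -0.88 at 24 h. At 24 h both KO channels lay below both WT channels, and the ratios of the 10 spots on the array ran from -0.93 to -0.76 in replicate 1 and from -0.92 to -0.84 in replicate 2. The mean ratio of -0.87 (interval -1.30 to -0.44, a 1.83-fold lower level in KO) had an adjusted p of 0.371. With the replicate block, which also takes out the dye orientation, its adjusted p was 0.012, under which 0.585% of all genes passed at 24 h. The difference between the KO and WT responses at 24 h, -0.98 (interval -1.58 to -0.38), did not pass with the block (adjusted p = 0.0781) or without it (adjusted p = 0.90). The Lyz2 ratios were also lowest at 24 h, at -1.85 and -1.61. The replicate 1 WT channels of Lyz2 had the same value, 18.10, unstimulated and at 1 h. Whether the top of the scale limited its earlier ratios was not tested. The mean ratio of the 6 macrophage markers other than Cd14 and Lyz2 was -0.06 and -0.10 on the 24 h arrays, with 3 of 6 lower in KO on each. Single markers differed, with Csf1r at -0.48 and -0.58, Marco at 0.05 and -0.94 and Fcgr1 at -0.06 and 0.83. Of all 8 macrophage markers, Lyz2 included, 1 was called lower and 0 higher in KO at 24 h (0.0244% of all genes). For the mean over times 2 were called lower and 0 higher (0.566%). The part of these markers in the Tlr2 ratio was not tested.

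Cd14 had KO/WT ratios of -0.39 and -1.24 at 24 h and of 0.17 and 1.05 at 4 h. The KO channels were lower on both 24 h arrays and higher on both arrays labelled 4 h. Neither mean passed the test (-0.82, interval -1.46 to -0.17, adjusted p = 1 at 24 h, and 0.61, interval -0.03 to 1.25, adjusted p = 1.00 at 4 h), and with the block the adjusted p were 0.243 and 0.433. The difference in response at 24 h was -1.02 (interval -1.93 to -0.11) with an adjusted p of 1.00, and of 0.435 with the block. The mean ratio of the 7 mast cell markers was higher in KO on the replicate 2 arrays, at 0.73, 0.47, 1.15 and 0.98 at 0, 1, 4 and 24 h, against -0.15 to 0.22 on the replicate 1 arrays, and its part was not tested.

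Tlr4 was higher in KO on both unstimulated arrays, with ratios of 0.30 and 0.72. The mean of 0.51 (interval 0.07 to 0.95) had an adjusted p of 0.745, and of 0.155 with the block. At 1, 4 and 24 h its mean ratios were -0.02, 0.03 and 0.11, with replicates of opposite sign each time. On the same unstimulated arrays the mean ratio of the 13 measured LPS-induced products was 0.67 and 0.56, and its part in the Tlr4 ratio was not tested.

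The remaining members had mean ratios between -0.37 and 0.33. Tlr1 was -0.23 and -0.41 on the arrays labelled 4 h (mean -0.32, adjusted p = 0.837), Tlr3 was 0.22 and 0.44 there (mean 0.33, adjusted p = 0.987), and Tlr6 was -0.67 and -0.08 at 1 h (mean -0.37, adjusted p = 0.883). Tlr7 was 0.18 and 0.32 at 24 h (mean 0.25, adjusted p = 1), and Tlr9 was -0.29 and -0.21 unstimulated (mean -0.25, adjusted p = 0.772). The unadjusted intervals of these 5 ratios lay on one side of 0 (Tlr1 -0.54 to -0.10, Tlr3 0.07 to 0.60, Tlr6 -0.73 to -0.01, Tlr7 0.03 to 0.46, Tlr9 -0.47 to -0.03), and none passed after adjustment over all genes. The interval of Ly96 at 24 h ran from -0.14 to 0.52. No difference in response between KO and WT passed for any member at 1, 4 or 24 h, with 0 of 10 at each and 0% of all genes. Before adjustment 0, 2 and 3 members had p under 0.05, against 512, 1071 and 1231 of all 36947 genes. With the block again 0 members passed, against 0, 12 and 78 of all genes.

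Ordered over the 8 conditions, neighbouring means often overlapped. Tlr2 ran from 16.14 in KO at 1 h down to 12.60 in KO at 24 h, and 3 of its 7 neighbouring pairs overlapped in their channels, while WT at 24 h and KO at 24 h did not. Cd14 ran from 17.64 in KO at 4 h to 15.48 in KO at 24 h, with 4 of 7 pairs overlapping. Tlr4 ran from 10.66 in KO at 4 h to 9.18 in KO at 1 h, also with 4 of 7. For Tlr3 the 4 highest means were those of 4 and 24 h, and 4 of 7 pairs overlapped. Of the 7 pairs of Ly96 and of Tlr5, 6 overlapped.

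The genes whose level was most like that of a member were found by Pearson's r over the 16 channels, among 12743 named genes above background in at least 8 channels. All channels share the same LPS times and 8 arrays, so these r describe the pattern only. Tlr3 was most like Ifi213, Mlkl and Dhx58 (r = 0.99 each). Tlr2 was most like Olr1 (0.99), Ptpre (0.96) and Larp4b (0.96). Olr1 changed by 2.91 at 1 h and -1.05 at 24 h in WT, and by 2.47 and -3.05 in KO. Cd14 was most like Etf1 (0.93), Bcl2a1c (0.93) and Fosl2 (0.92), and Tlr4 was most like Cldn12 (0.94), Hlx (0.93) and Macir (0.92). Hlx was at -0.91 in WT and -1.18 in KO at 1 h, and at 0.77 and 1.03 at 4 h.

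The other genes of the pathway were read from lists. Of 10 further TLR family and LPS recognition genes, 0 rose and 6 fell at 4 h in WT, and 0 rose and 7 fell in the RNA labelled KO, against 15.5% higher and 19.3% lower among all genes in WT and 16.2% and 19.7% in KO. Tlr13, which encodes a receptor for bacterial ribosomal RNA, fell by 2.97 in WT (adjusted p = 2.24e-06) and by 3.80 in KO (adjusted p = 1.98e-07). The scavenger receptor gene Cd36 fell by 1.39 and 1.27, and the integrin chain gene Itgb2 fell by 1.29 and 1.33, in WT and KO. Tlr11 was not well above background in any channel. At 24 h 8 of these genes fell in WT (17% of all genes) and 7 in KO (15.9%), with a median change of -0.98 and -1.04 against -0.02 for all genes in both genotypes.

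Of 13 genes for the folding, trafficking and proteolytic processing of TLRs, 0 rose and 10 fell at 4 h in each genotype, with a median change of -1.05 in both. Among all genes 15.5% rose and 19.3% fell in WT, and 16.2% and 19.7% in KO. Rab7b, which encodes a small GTPase that directs receptors to lysosomes, fell, with changes of -4.42 in WT (adjusted p = 1.65e-10) and -4.78 in KO (adjusted p = 8.80e-11). The lysosomal transporter gene Slc15a4 fell by 2.21 and 2.36, and Cnpy4 fell by 1.64 and 1.76. Unc93b1, which encodes the chaperone that carries the endosomal TLRs out of the endoplasmic reticulum, was picked for its role after the values were seen and fell by 1.13 and 1.05. At 24 h Hsp90b1, which encodes the TLR chaperone gp96 and was the 1 gene of the list to rise, rose by 1.82 in WT and 1.14 in KO, while 9 genes of the list fell in WT (17% of all genes) and 10 in KO (15.9%).

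Of 19 adaptor and proximal kinase genes, 12 rose and 4 fell at 4 h in each genotype, with medians of 0.67 in WT and 0.79 in KO. The shares of all genes were again 15.5% higher and 19.3% lower in WT and 16.2% and 19.7% in KO, and with loess within arrays only 27.7% and 27.9% of all calls at 4 h were higher, against 44.5% and 45.1%. Myd88, the adaptor gene of nearly all TLRs, rose by 2.25 and 2.26 (adjusted p = 4.38e-09 and 4.25e-09). Irak3, which encodes an inhibitory kinase of the pathway, rose by 1.70 and 1.78, and Tab2 rose by 1.23 and 1.40. Tab1 fell by 1.47 and 1.26, Irak1 by 0.83 and 0.79, and Irak4 by 0.56 and 0.52. Of the 13 LPS-induced products measured, all 13 rose at 4 h in both genotypes, led by Il6 (9.55 in WT and 8.71 in KO), Ptgs2 (9.23 and 8.60) and Cxcl10 (9.01 and 8.32). In the fit without the replicate number, 0 of the 55 genes of these 4 lists passed between KO and WT at a single time point, where 0 to 0.0244% of all genes passed. For the mean over the 4 time points, where 0.566% of all genes passed, 1 did so, Ctsk, which encodes a cathepsin (-0.45, adjusted p = 0.0157, named for this count).

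With the replicate block, run on these lists after seeing the data, 5 of the 55 genes passed in unstimulated cells (1.06% of all genes), 2 at 1 h (0.574%), none (0) at 4 h (0.566%) and 1 at 24 h (0.585%), and they are named here for these counts. In unstimulated cells the cytokine and chemokine genes Il1b (1.34, adjusted p = 0.0155), Il6 (1.25, adjusted p = 0.0304) and Ccl4 (1.04, adjusted p = 0.00289) were higher in KO. Ctsk (-0.50, adjusted p = 0.0255) and the kinase gene Ikbke (-0.50, adjusted p = 0.0311) were lower there. At 1 h Tlr12 was higher (0.58, adjusted p = 0.0489) and Ctsk lower (-0.50, adjusted p = 0.0364), and at 24 h Hsp90b1 was lower (-0.68, adjusted p = 0.0301). For the mean over times 8 of the 55 passed with the block (5.99% of all genes). The difference in response passed for 0 genes at 1 h (0%), for 1 at 4 h (Ccl4, -1.24, adjusted p = 0.0355, with 0.0325% of all genes) and for 2 at 24 h (Il1b, -1.79, and Ccl4, -0.97, adjusted p = 0.0424 each, with 0.211%).

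**Figure D4:**
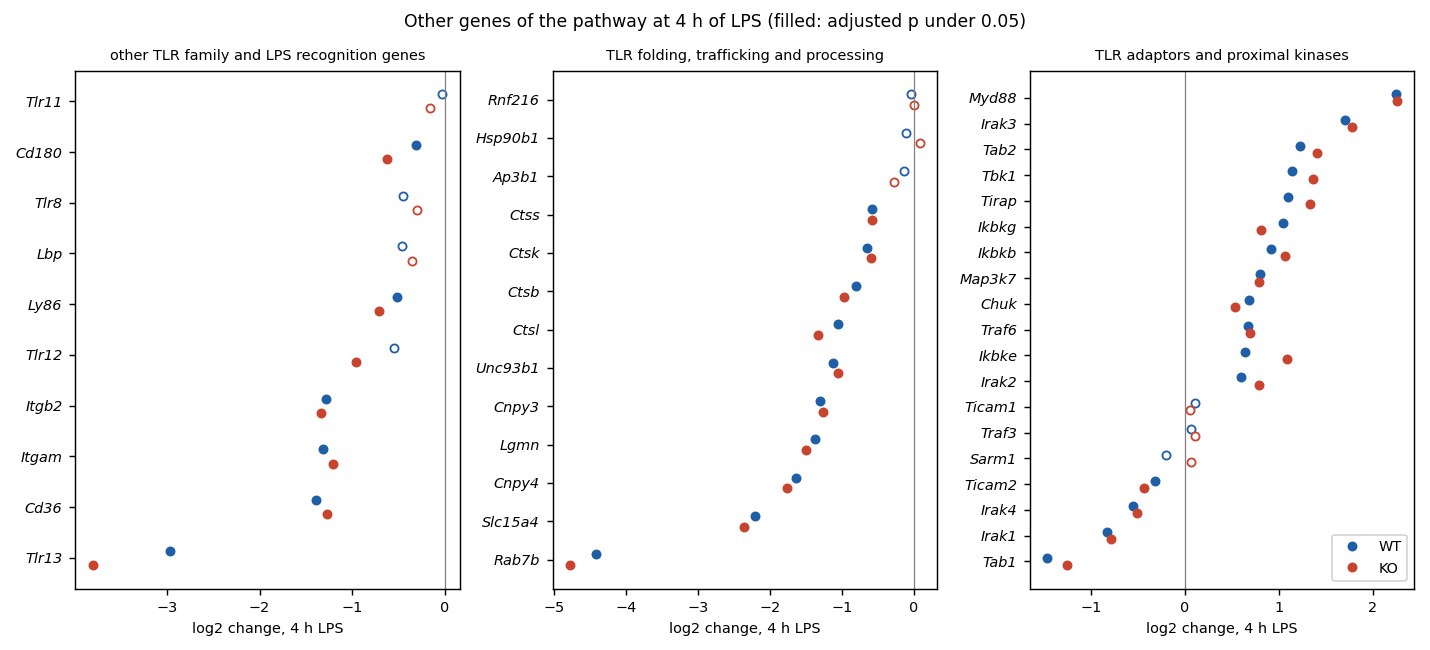
Log2 change at 4 h of LPS against unstimulated cells for the other genes of 3 pathway lists in WT (blue) and KO (red), with filled points where the adjusted p was under 0.05. All 10 called trafficking genes lie to the left of 0, down to -4.78 for Rab7b in KO, while 12 of 19 adaptor and kinase genes are filled to the right of 0, up to 2.26 for Myd88.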

How the data were processed

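Dual-channel arrays of mouse peritoneal macrophages were analysed, with 2 samples per genotype and time point. The authors scanned the arrays on an Agilent scanner and turned the scans into numbers with Agilent Feature Extraction 10.7.3. The deposited scanner files give intensity values per spot for Cy3 and Cy5. The authors normalised with loess and quantile in limma, and the deposited value table gives Cy5 over Cy3 as log2 ratios, used as an alternative for the KO/WT ratios. A direction for that table was set against the scanner ratios, which it followed with a slope of 0.977 to 1.035.

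Median spot intensities were background-corrected with normexp (offset 50), normalised by loess within and quantile between arrays, and averaged over spots of a probe in limma 3.58.1 (R 4.3.3, statmod 1.5.0). Control spots and flagged outlier spots had no weight. Genes with a mean log2 intensity under 6 were left out, which kept 36947 genes and transcripts for the ratio fit and 36927 for the separate channels. KO/WT ratios were fitted per time point. LPS changes were fitted on separate channels with a within-spot correlation of 0.1159. Benjamini-Hochberg adjusted p under 0.05 in limma made a call. All members, and up to 3 genes that rose and 3 that fell most at 4 h in both genotypes of each other list, were named. The members and lists were chosen with earlier results of these data known. The number of arrays limits the precision, and 43.8 to 51.3% of gene probes were well above background per channel. The study describes the replicates as biological and, for the LPS response, as independent experiments. It does not say whether mice were pooled. The p-values measure only the spread between these samples, which may be technical in part. The protocol in the labels names a 4 h stimulation for all samples, and times were taken from the sample titles. The arrays share a slide and scan, and the unstimulated and 1 h arrays lay in another slide row than the 4 and 24 h arrays, so row cannot be told apart from time in the comparisons of 4 or 24 h with unstimulated or 1 h cells, while 1 h against unstimulated and 24 h against 4 h lay within a row.

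Same-numbered arrays deviated together, with Pearson's r of 0.475 to 0.679 in each of 6 pairs of time points across genes. The numbers are also the dye orientation, and a dye effect of a gene would make these arrays deviate together too. These r therefore cannot tell whether the numbers pair the samples. The main fits have no replicate term, and the replicate block is given where it changes a call. Alternatives were Aquantile, loess only, processed signals, offset 16, other filters, the mean of probes, the replicate block, a dye term, the methods' t-test and each array left out.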

Additional observations from a re-analysis of the deposited data

How the results depend on the processing

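Of 46 member changes with LPS that passed, 30 passed under every alternative other than the methods' t-test and 16 were lost under at least one. That t-test, which estimates the spread from each gene alone, called 0 members in each of the 10 LPS comparisons after adjustment, and 1 to 6 of 10 before it, where 4851 to 11474 of all 36947 genes had p under 0.05. With loess within arrays only, the number of members called at 4 h in WT was 4 against 7, and the Tlr7 change at 24 h in KO turned to 0.0206. That setting moved the median of all genes from 1 to 4 h by -0.16 in both genotypes. The share of all calls that were higher then moved from 44.5% to 27.7% at 4 h in WT, and from 45.1% to 27.9% in KO. From 1 to 4 h it moved from 47% to 27.1% in WT and from 46.9% to 27.1% in KO, and from 4 to 24 h from 50.8% to 79.8% in WT and to 79.2% in KO. The cause was not tested.

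With the replicate block the number of members called between KO and WT at 24 h was 1 (Tlr2) against 0, and the numbers of all genes called rose from 0, 0, 5 and 9 at the 4 times to 391, 212, 209 and 216, and from 209 to 2212 for the mean over times. The block also added Tlr9 at 1 h and from 1 to 4 h in WT and ended the Tlr2 call from 1 to 4 h in KO, and it changed no other call of a member. Among the 55 other pathway genes, where the block was chosen after seeing the data, it raised the number called between KO and WT from 0 to 5 unstimulated, to 2 at 1 h and to 1 at 24 h, from 1 to 8 for the mean over times, and from 0 to 1 and 2 for the difference in response at 4 and 24 h. Leaving out 1 array at a time, which leaves a group with 1 sample assumed to vary like the others, the number of members called from 1 to 4 h ranged from 2 to 4 in WT and from 2 to 4 in KO, against 4 each. Tlr5 could not be fitted under the filter on 2 channels above background. Spots near background, as for Tlr5 and unstimulated Tlr3, limit what these arrays show.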
